A study of Mus musculus with 8 samples.

Results

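F13a1 and 9 other genes of blood clotting were followed in mouse leukaemia-model cells, out of 19938 genes measured with a probe set of their own. The 10 genes, F13a1, F3, F5, F7, F10, Tfpi, Thbd, Plaur, Prrg4 and Vkorc1, were chosen from their place in the clotting pathway, with the differences between deleted and control cultures in these data already known for some of them. Each had a single probe set, named by 1 gene symbol in the platform annotation. The values that informed that choice, the change from control to deleted cultures, are therefore given here as a description without a test. The differences between the 2 clones of cells were not the values that informed it and were tested. The same arrays enter both, so the 2 are not fully separate. A gene is said to pass where its p from limma, a linear model fitted to every gene, was under 0.05 after Benjamini-Hochberg adjustment over all genes.

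Clotting starts when tissue factor (F3) on a cell surface binds factor VII (F7), and the pair activates factor X (F10). Factor X, with factor V (F5) as its cofactor, makes thrombin, thrombin makes fibrin, and factor XIII, whose catalytic A subunit is encoded by F13a1, cross-links the fibrin. Tfpi blocks the opening step and thrombomodulin (Thbd) turns thrombin towards anticoagulation. Plaur is the urokinase receptor, which localises plasmin formation at the cell surface. Factors VII and X and the membrane protein PRRG4 carry Gla domains, whose glutamates are carboxylated in a vitamin K cycle that needs the reductase encoded by Vkorc1. The liver makes most circulating clotting proteins, but monocytes, macrophages and megakaryocytes are known to make factor XIII-A, and monocytes can make tissue factor, the urokinase receptor and some of the soluble factors.

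The cells were c-Kit-positive marrow cells of Runx1 and Cbfb double-floxed mice, transduced with the leukaemia fusion gene MLL-AF9 and with CreERT2, a form of Cre recombinase that becomes active with 4-hydroxytamoxifen (4OHT), and selected with puromycin over repeated plating. All 8 cultures carried both floxed genes, MLL-AF9 and CreERT2. The 4 control cultures received ethanol and the 4 cultures labelled deleted (Runx1Cbfb-KO) received 4OHT at 1 µM, each for 24 h in cytokine-containing methylcellulose. There were 2 clones with 2 biological replicates of each clone and treatment, so that 4 sets of 1 control and 1 deleted culture were formed by clone and replicate number. A clone is 1 line of transduced cells, so 2 clones say little about further ones, and no culture received 4OHT without the floxed genes, so effects of 4OHT and of active Cre cannot be told apart from those of the deletion. The sources used here do not give the mice's age or sex, nor the promoter that drives CreERT2.

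Levels are log2 probe-set values made with RMA (robust multi-array average), and the arrays correlated at 0.977 or more with one another. Runx1 itself averaged 10.30 ± 0.30 (SD, n = 4) across controls and 10.82 ± 0.28 across the arrays labelled deleted, and Cbfb averaged 9.93 ± 0.08 and 9.75 ± 0.13. Runx1 was higher in the array labelled deleted by 0.48 to 0.56 in the 4 sets. The Runx1 signal thus went against the label, although probes outside the deleted exons check nothing, and every direction below follows the label. The 10 progenitor markers listed for these cells, among them Mpo, Elane, Hoxa9, Meis1 and Kit, were above background in all 8 arrays, and 4 of them were lower with deletion, as given with the other markers below. Background was taken as the 95th percentile of 1027 olfactory receptor genes, which lay between 5.62 and 5.92 across the arrays. By that measure 8 of the 10 clotting genes were above background in every array, against 62.4% of all genes. The exceptions were F5, above it in 6 arrays, and Prrg4, above it in 4.

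The stretches before the transcription starts of the 3 genes on which the results turn most are shown first, because RUNX1 binds DNA and the letters it favours can be looked for there. The RefSeq promoter table (GRCm38.p6) held 9 of the 10 genes, with 11 starts, 2 each for F13a1 and Tfpi; Thbd was not in it. Each line below gives the 250 bases before a start, 5′ to 3′ in the direction of the gene, and capitals mark GAGGAA, the core letters bound by the myeloid factor PU.1, or their reverse complement.

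F13a1, first start, chr13:37050245-37050494, minus strand: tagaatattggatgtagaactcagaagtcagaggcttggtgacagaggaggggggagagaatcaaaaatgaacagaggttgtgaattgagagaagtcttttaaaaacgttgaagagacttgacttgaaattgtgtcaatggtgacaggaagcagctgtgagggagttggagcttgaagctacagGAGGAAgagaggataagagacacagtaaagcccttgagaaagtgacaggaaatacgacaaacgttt
F13a1, second start, chr13:37049214-37049463, minus strand: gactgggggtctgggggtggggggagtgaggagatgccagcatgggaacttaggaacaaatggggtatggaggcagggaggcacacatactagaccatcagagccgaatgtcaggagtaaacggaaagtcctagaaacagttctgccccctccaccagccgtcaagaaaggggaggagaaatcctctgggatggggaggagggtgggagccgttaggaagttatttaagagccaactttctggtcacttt
F7, chr8:13025784-13026033, plus strand: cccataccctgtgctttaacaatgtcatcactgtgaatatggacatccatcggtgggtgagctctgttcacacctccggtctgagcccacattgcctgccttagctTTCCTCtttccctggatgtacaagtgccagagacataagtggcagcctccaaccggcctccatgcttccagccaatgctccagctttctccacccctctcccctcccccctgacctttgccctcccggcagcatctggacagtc
Prrg4, chr2:104849851-104850100, minus strand: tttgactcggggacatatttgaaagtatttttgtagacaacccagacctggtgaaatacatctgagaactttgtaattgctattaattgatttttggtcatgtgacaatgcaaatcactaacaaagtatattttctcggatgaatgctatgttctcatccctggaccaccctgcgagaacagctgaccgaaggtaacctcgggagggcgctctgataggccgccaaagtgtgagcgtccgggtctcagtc

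Neither RUNX hexamer searched, TGTGGT or TGCGGT on either strand, occurred in any of the 11 windows. Of all 32851 promoters of the table, 18.6% held at least 1 of them in a window of that length. At that share, none in 11 windows says little. GAGGAA occurred on 1 or the other strand in 4 of the 11 windows, those of the first F13a1 start (first letter 66 bases before the start), F7 (144 bases), the second Tfpi start and Plaur, and in 23.3% of all promoters. These matches describe letters only, and nothing about binding was measured.

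F13a1 (probe set 10408693) was high in clone 1 and lower in clone 2. In clone 1 its level was 10.15 and 9.93 in the controls of replicates 1 and 2 and 10.76 and 10.49 in the arrays labelled deleted. In clone 2 it was 7.91 and 9.01 in the control arrays and 9.74 and 10.49 in those labelled deleted. Both clone 2 controls lay below the other 6 arrays. The array labelled deleted was the higher of its pair in every set.

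Ordered by mean, F13a1 stood lowest in clone 2 controls at 8.46 ± 0.78 (SD, n = 2), followed by clone 1 controls at 10.04 ± 0.16, clone 2 labelled deleted at 10.12 ± 0.53 and clone 1 labelled deleted at 10.63 ± 0.19. The clone 2 arrays labelled deleted, at 9.74 and 10.49, spanned both clone 1 controls and reached the lower clone 1 array labelled deleted. Within clone 1, both arrays labelled deleted, at 10.76 and 10.49, lay above both controls, at 10.15 and 9.93. This order takes no account of the pairing of cultures.

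**Figure D1:**
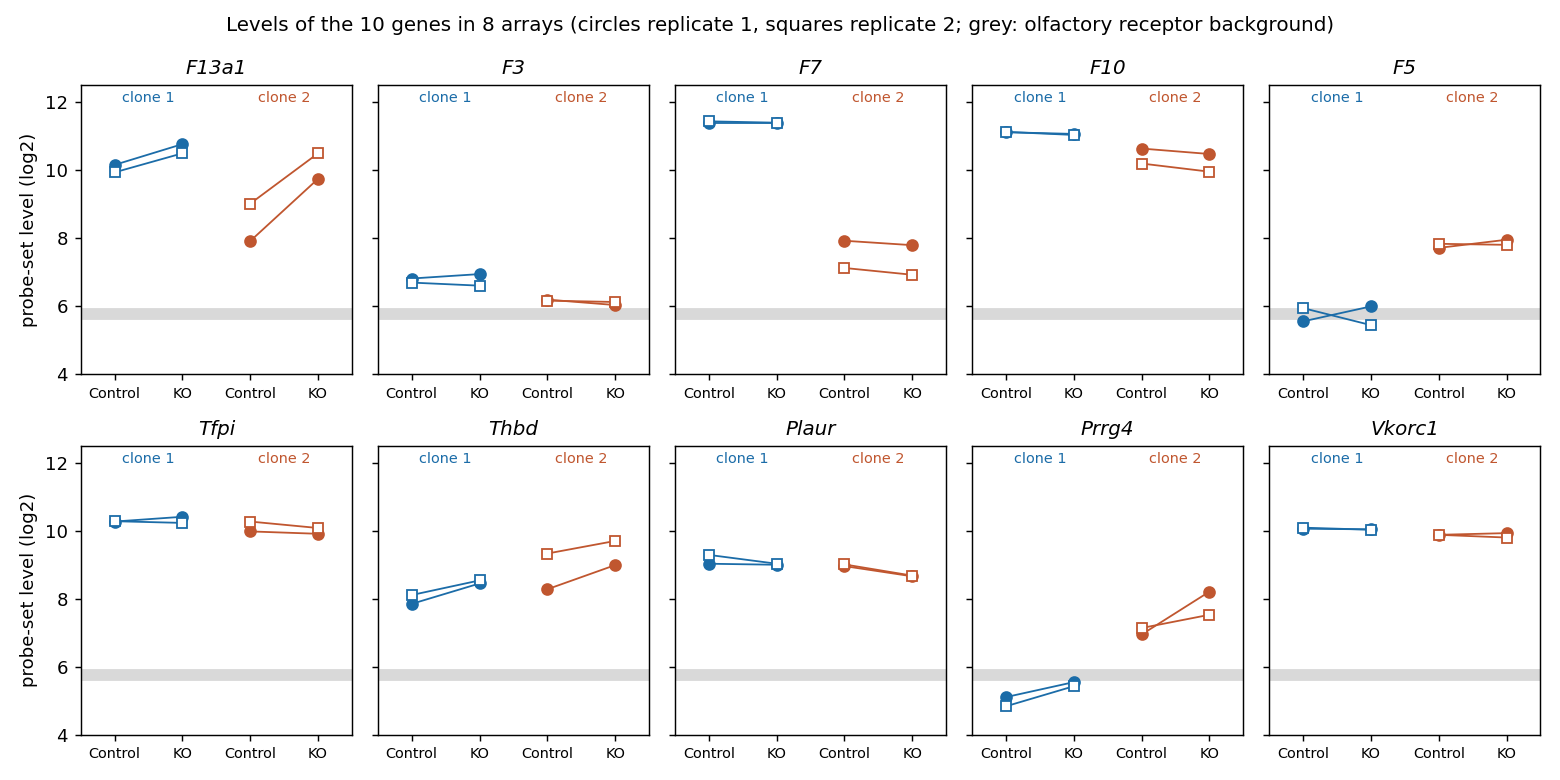
Level (log2 probe-set value) of each of the 10 genes in the 8 arrays; lines join the control and the deleted (KO) array of a set, blue is clone 1, orange clone 2, filled circles replicate 1 and open squares replicate 2, and the grey band is the range of the olfactory receptor background from 5.62 to 5.92. F13a1 is higher at the deleted end of all 4 lines, F7 separates the clones with clone 1 between 11.39 and 11.43 and clone 2 between 6.92 and 7.92, and Prrg4 in clone 1 lies below the band.

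The change of F13a1 was larger in clone 2. These set values belong to the change that informed the choice of genes, so they are a description too. F13a1 was 1.5-fold higher with deletion in clone 1 (log2 change 0.59 ± 0.08, moderated SE) and 3.15-fold higher in clone 2 (1.66 ± 0.08, moderated SE). The set values were 0.61 and 0.57 in clone 1 (SD 0.03) and 1.83 and 1.48 in clone 2 (SD 0.25). The difference between these changes was 1.07 (moderated SE 0.11, n = 4 sets). In limma's interaction fit across all 19938 genes 2 lay past the threshold (0.01%), 1 with a more positive change in clone 2 (0.00502%), which was F13a1, and 1 with a more negative one (0.00502%), Ly6a2; for F13a1 this is no independent evidence. The moderated SE borrows spread from other genes, and the SE computed from the 4 set values of F13a1 alone was 0.17. F13a1 was not past it without the pairing of cultures, without the variance trend or with all probe sets tested, while the difference stayed between 0.90 and 1.24 over 14 alternatives.

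F13a1 also differed between the clones before deletion. Control cultures of clone 2 were 2.99-fold lower than those of clone 1 (log2 difference -1.58 ± 0.31, SE; limma adjusted p = 0.0169). The same control arrays enter the change that informed the choice of F13a1, and the difference between the clones' changes given above. This test therefore does not stand fully apart from that choice or from that difference. The arrays labelled deleted were 1.42-fold lower in clone 2 (-0.51 ± 0.31, 95% interval -1.20 to 0.18; adjusted p = 0.411), which did not pass. The call in control arrays ended without the clone 1 control of replicate 1 (-1.46, adjusted p = 0.152) or replicate 2 (-1.69, 0.0759), without the clone 2 control of replicate 1 (-1.03, 0.0790), with robust variance moderation (0.142) and with all probe sets tested (0.142).

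The genes of the opening steps stood apart by clone. F3 (probe set 10495675), which encodes tissue factor, was at 6.81, 6.94, 6.69 and 6.6 in clone 1 (control and labelled deleted of replicate 1, then of replicate 2). In the same order it was at 6.19, 6.03, 6.16 and 6.12 in clone 2. All 4 arrays of clone 2 lay below all 4 of clone 1, close above background.

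F7 (probe set 10570280), the gene of factor VII, separated the clones most. It was at 11.39, 11.39, 11.43 and 11.39 in clone 1, a range of a few hundredths across both treatments. In clone 2 it was at 7.92, 7.79, 7.12 and 6.92, still above background in every array. Control cultures of clone 2 were 14.8-fold lower than those of clone 1 (log2 difference -3.89 ± 0.27, SE; limma adjusted p = 1.16e-05) and deleted cultures 16.4-fold lower (-4.04 ± 0.27; adjusted p = 8.88e-06). The difference in control cultures was the 14th largest in size among 19938 genes, and its call held under all 19 alternatives run, with values from -4.29 to -3.49.

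F10 (probe set 10570291), the gene of factor X, lies next to F7 in the genome and was lower in clone 2 by far less. Clone 1 arrays were at 11.11, 11.06, 11.12 and 11.03, and clone 2 arrays at 10.63, 10.47, 10.19 and 9.95. The groups did not overlap. Clone 2 was 1.63-fold lower among controls (-0.71 ± 0.16, SE; adjusted p = 0.0379) and 1.78-fold lower among deleted cultures (-0.83 ± 0.16; adjusted p = 0.0136).

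F5 (probe set 10351224), the gene of the cofactor factor V, ran the other way. In clone 1 it was at 5.55, 5.99, 5.94 and 5.44, in and around the background band and above it in 2 of 4 arrays. In clone 2 it was at 7.71, 7.95, 7.83 and 7.80. It was higher in clone 2 by 2.03 ± 0.19 (log2, SE) among controls (limma adjusted p = 0.000121) and by 2.16 ± 0.19 among deleted cultures (adjusted p = 7.56e-05), on the measured values. With each clone 1 array raised to its background where it lay below, clone 2 stood 3.89-fold higher among controls and 4.02-fold higher among deleted cultures.

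F3 was lower in clone 2 by 1.48-fold among controls (-0.57 ± 0.14, SE; limma adjusted p = 0.0448) and 1.62-fold among deleted cultures (-0.70 ± 0.14; adjusted p = 0.0137). The F3 call in control arrays ended when any 1 of the 4 control arrays was left out (-0.63 to -0.51, adjusted p up to 0.384), and that of F10 without the clone 1 control of replicate 1 (0.205) or 2 (0.188) or the clone 2 control of replicate 2 (-0.49, 0.319). In deleted arrays the F3 call ended without the clone 1 array of replicate 1 (0.124), the F10 call without it (0.0783), without the clone 2 array of replicate 2 (-0.57, 0.0890), or with array weights (0.0546), and both with all probe sets tested (F3 0.0701, F10 0.101). In control arrays both also ended with all probe sets tested (F3 0.159, F10 0.199), and F10 without the variance trend (0.0916).

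Among the regulators, Tfpi (probe set 10484389), the inhibitor of the tissue factor pathway, was nearly level. It was at 10.27, 10.41, 10.28 and 10.23 in clone 1 and at 9.98, 9.91, 10.27 and 10.08 in clone 2. The clones overlapped, and the clone difference of -0.15 (95% interval -0.39 to 0.10) among controls and -0.32 (-0.57 to -0.07) among deleted cultures did not pass (limma adjusted p = 0.689 and 0.156).

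Thbd (probe set 10488378), which encodes thrombomodulin, was higher in the array labelled deleted of every set. Clone 1 gave 7.85 and 8.45 in replicate 1 and 8.11 and 8.54 in replicate 2, and clone 2 gave 8.28 and 8.99, then 9.33 and 9.70. The 2 replicates of clone 2 were further apart than control and deleted cultures within a set, so the treatment groups overlapped although each pair moved upward. The clone difference was 0.82 (95% interval 0.16 to 1.49) among controls and 0.85 (0.19 to 1.51) among deleted cultures and did not pass (limma adjusted p = 0.236 and 0.165). Without the clone 2 control of replicate 1 it passed among controls (1.35, adjusted p = 0.0174). Among deleted cultures it passed without that array (0.0426), without the clone 2 control of replicate 2 (0.0441) and without the clone 2 array labelled deleted of replicate 1 (1.20, 0.0449).

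Plaur (probe set 10550906), the urokinase receptor gene, was at 9.03, 9.0, 9.29 and 9.03 in clone 1 and at 8.96, 8.66, 9.01 and 8.68 in clone 2. The array labelled deleted was the lower of each pair. Its clone difference was -0.18 (95% interval -0.42 to 0.06) among controls and -0.35 (-0.59 to -0.11) among deleted cultures, and neither passed (limma adjusted p = 0.602 and 0.115).

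Of the vitamin K genes, Prrg4 (probe set 10485624) encodes a single-pass membrane protein with a Gla domain. It was at 5.11, 5.55, 4.84 and 5.43 in clone 1, at or below background in all 4 arrays. In clone 2 it was at 6.95, 8.21, 7.14 and 7.53, above background in all 4. Clone 2 controls were at least 2.54-fold higher and clone 2 deleted cultures at least 4.56-fold higher, counting from the background of the clone 1 arrays. On the measured values the differences were 2.07 ± 0.20 (log2, SE; limma adjusted p = 0.000158) and 2.39 ± 0.20 (adjusted p = 5.40e-05). For Prrg4 and F5 both calls held under every alternative in which the gene was tested, 18 and 19 for each comparison.

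Vkorc1 (probe set 10568328), the vitamin K reductase subunit gene, varied least, from 10.03 to 10.09 in clone 1 and from 9.80 to 9.93 in clone 2. The clones did not overlap, yet the differences of -0.20 (95% interval -0.38 to -0.02) among controls and -0.17 (-0.35 to 0.01) among deleted cultures did not pass (limma adjusted p = 0.329 and 0.308).

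Counted together, 6 of the 10 genes passed between the clones in control arrays, 4 lower in clone 2 (F13a1, F3, F7 and F10) and 2 higher (F5 and Prrg4), where 3.97% of all genes passed (2.37% lower and 1.6% higher). In the arrays labelled deleted 5 of 10 passed, the same genes without F13a1, where 5.25% of all genes passed (3.43% lower and 1.82% higher). For 6 of the 10 (F3, F5, F7, F10, Prrg4 and Vkorc1) no array of one clone overlapped the other clone, against 19.7% of all genes. The median clone difference of the 10 genes was -0.19 in control arrays, beside 0.03 over all genes. When control and deleted arrays were pooled with group as a covariate, Thbd (0.84, adjusted p = 0.0187), Plaur (-0.26, 0.0413) and Vkorc1 (-0.18, 0.0392) also passed. That fit treats both cultures of a set as independent, although their deviations correlated (0.237 over all genes by limma's duplicateCorrelation). With only 2 arrays per clone and treatment, the clone tests within a treatment rest on a spread pooled over all 8 arrays. That spread also counts both cultures of a set as independent. Their deviations from clone and group means correlated at 0.436 in clone 1 and 0.249 in clone 2. The p-values, which measure the spread between these cultures, may thus be too small.

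**Figure D2:**
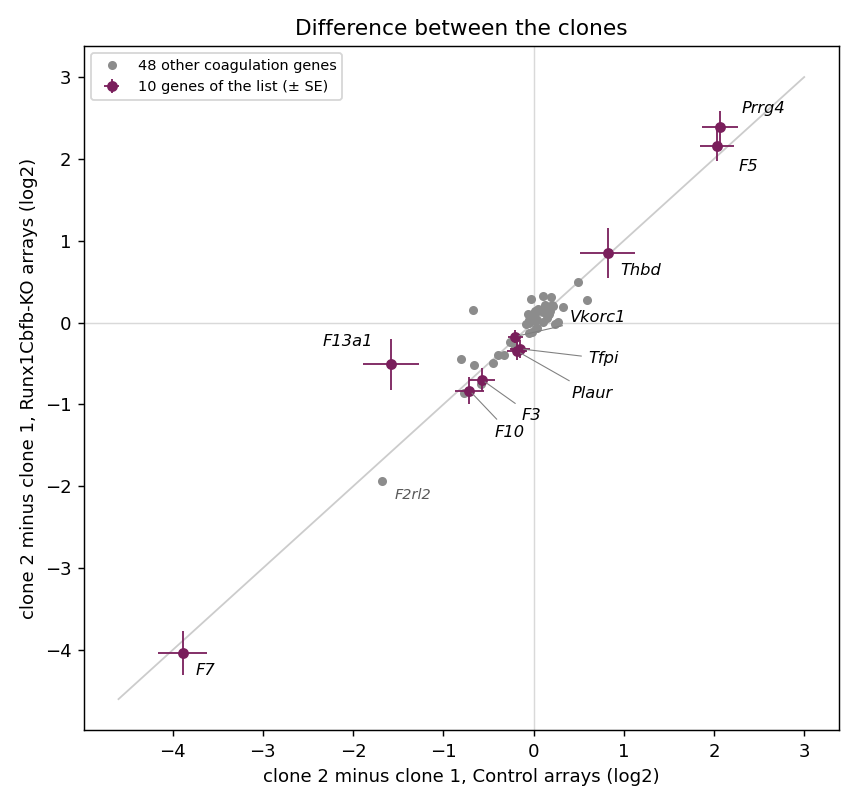
Difference between the clones (clone 2 minus clone 1, log2) in control arrays on the horizontal axis and in arrays labelled deleted on the vertical axis, with SE bars for the 10 genes (purple) and without for the 48 other coagulation genes (grey); the diagonal marks equal differences. F7 lies at -3.89 and -4.04, F5 and Prrg4 lie above 2 on both axes, and F13a1 lies off the diagonal at -1.58 and -0.51.

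The genes on either side were read after the clone difference of F7 had been seen. The 3 measured genes on each side of F7, F5, Prrg4 and F13a1 in RefSeq order had clone differences in control arrays between -0.43 (Tcp11l1, beside Prrg4) and 0.27 (Slc19a2, beside F5), apart from F10 at -0.71. F10 was the only one of these neighbours to pass in limma's test. Next to F7, Mcf2l was at 0.17 on one side, and past F10 came Proz, the gene of protein Z, at 0.04 and Pcid2 at 0.07.

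**Figure D3:**
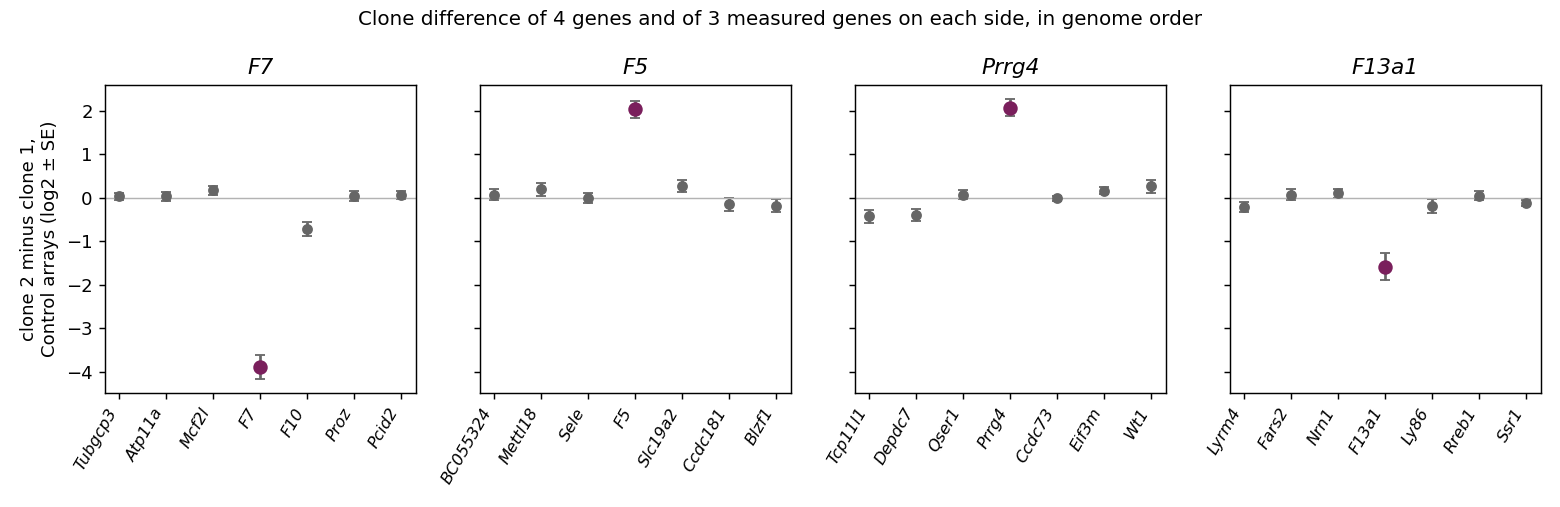
Clone difference in control arrays (clone 2 minus clone 1, log2 ± SE) of F7, F5, Prrg4 and F13a1 (purple) and of the 3 measured genes on each side of each (grey), placed in genome order and not to distance. F7 at -3.89, F5 at 2.03, Prrg4 at 2.07 and F13a1 at -1.58 stand apart from their neighbours, of which F10 at -0.71 lies farthest from 0.

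The change from control to deleted cultures is given next as a description, since it informed the choice of genes. F13a1 was 2.18-fold higher on average (log2 change 1.12, SD 0.63 over 4 sets). Prrg4 was higher by 0.67 (SD 0.40), with set values of 0.43 and 0.58 in clone 1, where both arrays of a pair lay at or below background, and 1.26 and 0.39 in clone 2. Thbd was 1.44-fold higher (0.53, SD 0.16), with set values of 0.61, 0.43, 0.72 and 0.37. These 3 of the 10 genes were among the 0.953% of all genes past the threshold in the fit across all genes (0.481% higher and 0.471% lower), a count that the choice of genes favoured and that supports nothing. None of the 3 was past it without pairing, with clone as the only covariate, without the variance trend or with all probe sets tested. F13a1 was not past it with robust variance moderation. Prrg4 was not past it without the set of clone 1 replicate 2 (log2 change 0.70) or of clone 2 replicate 1 (log2 change 0.47). F13a1, Prrg4 and Thbd, and also F7, F10 and Plaur, moved the same way in all 4 sets, as did 13.2% of all genes. For F7 the smallest of these set differences rounded to 0.00.

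The other 7 genes had smaller average changes. Plaur was lower by 0.23 (SD 0.14), with set values from -0.34 to -0.03, F10 by 0.14 (SD 0.08), from -0.24 to -0.05, and F7 by 0.09 (SD 0.09), from -0.19 to 0.00. F5 averaged 0.04 with sets that disagreed, at 0.44 and -0.49 in clone 1 and 0.24 and -0.04 in clone 2. F3 averaged -0.04, Tfpi -0.05 and Vkorc1 -0.03, each with sets on both sides of 0. The 10 genes had a median change of -0.03, beside 0.00 over all genes. RNA from a whole culture cannot tell a change in the share of cells using a gene from a change in RNA per cell.

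**Figure D4:**
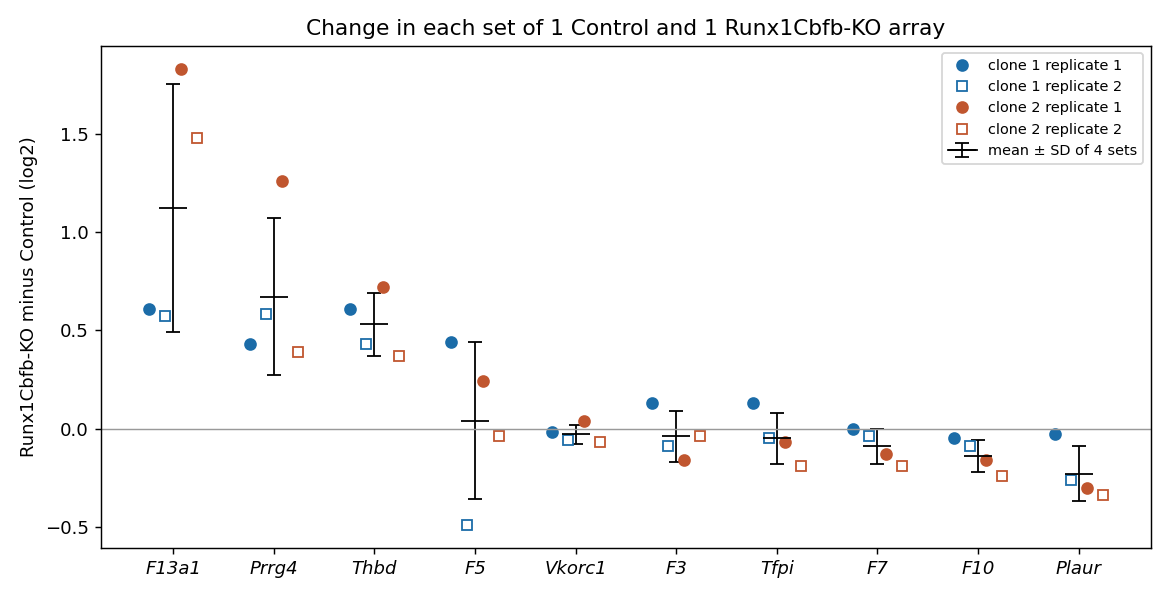
Change (array labelled deleted minus control, log2) of each of the 10 genes in the 4 sets; blue is clone 1, orange clone 2, filled circles replicate 1, open squares replicate 2, and the black bar is the mean ± SD of the 4 sets. F13a1, Prrg4 and Thbd lie above 0 in every set, with the clone 2 sets of F13a1 at 1.83 and 1.48 above its clone 1 sets, and Prrg4 has 1 set at 1.26 apart from the other 3.

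The rest of the pathway was read from a list of 53 further genes, of which 48 were measured. None of the 48 passed between control and deleted cultures in limma's test across all genes, where 0.953% of all genes passed. At that share, none passing in a list of this length says little. Of the 48, 9 had an unadjusted p under 0.05, beside 1289 of all 19938 genes. The median change of the 48 was -0.01, and 8 of them moved the same way in all 4 sets, as did 13.2% of all genes. Between the clones 5 of 48 passed in control arrays, 1 higher and 4 lower in clone 2, where 3.97% of all genes passed, and 4 of 48 in deleted arrays, all lower, where 5.25% passed.

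Of 11 vitamin K-dependent factors and liver zymogens measured, 4 were above background in all 8 arrays (F12, Proc, Proz and Gas6, each close above it), F2 in 7 and Pros1 in 1. The other 5 were below background in all 8, among them F9, the gene of factor IX, F11 and F13b, which encodes the plasma carrier subunit of factor XIII. F13b lay at 4.07 on average, so the catalytic subunit gene F13a1 was detected here without signal for its partner. Pros1, which encodes protein S, a cofactor of activated protein C, was higher in clone 2 controls (0.59 ± 0.13, SE; limma adjusted p = 0.0354). Its measured values were 5.36 and 5.05 in clone 1 controls and 5.71 and 5.87 in clone 2 controls, mostly at or below background. Fibrinogen genes Fga, Fgb and Fgg and the factor VIII gene F8 were below background throughout. The secretory receptor genes Lman1 and Mcfd2, whose products carry factors V and VIII out of the endoplasmic reticulum, were above it in every array. Mcfd2 was lower in clone 2 among deleted cultures (-0.39 ± 0.09; adjusted p = 0.0246).

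In the vitamin K group, Ggcx, the gamma-glutamyl carboxylase gene, and Vkorc1l1, a paralog of Vkorc1, were above background in all arrays and did not pass in any of the 4 comparisons. Prrg1, a relative of Prrg4, went the other way from it. It averaged 8.05 in clone 1 controls and 7.47 in clone 2 controls and was lower in clone 2 among deleted cultures (-0.75 ± 0.18, SE; limma adjusted p = 0.0393). Its change with deletion was -0.37 (adjusted p = 0.103) and negative in all 4 sets.

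Among anticoagulants, Anxa5, whose product covers the phosphatidylserine surface that clotting needs, was lower in clone 2 in controls (-0.77 ± 0.11, SE; limma adjusted p = 0.00213) and in deleted cultures (-0.86 ± 0.11; adjusted p = 0.000969). Tfpi2, a Kunitz inhibitor related to Tfpi, was lower in clone 2 controls (-0.80 ± 0.17; adjusted p = 0.0217). Of the thrombin receptors, F2rl2, which encodes PAR3, stood at 10.85 in clone 1 controls and 9.16 in clone 2 controls, a difference of -1.68 ± 0.10 (adjusted p = 4.48e-06), and the difference was -1.93 ± 0.10 in deleted cultures (adjusted p = 1.47e-06). F2r (PAR1) and F2rl3 (PAR4) were higher with deletion in 4 of 4 sets, by 0.29 and 0.19, without passing (adjusted p = 0.205 and 0.234), and F2r was above background in 4 of 8 arrays.

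Among fibrinolysis genes, Anxa2 and S100a10, which form a plasminogen receptor complex, and Plgrkt, another plasminogen receptor gene, were above background in every array, while Plg was not in any. None of the 8 measured genes of this group passed in the 4 comparisons, and Serpinb2, the gene of plasminogen activator inhibitor type 2, was at 0.36 with deletion (limma adjusted p = 0.226). Tgm2, the tissue transglutaminase gene and an enzyme relative of F13a1, was lower in clone 2 controls (-0.67 ± 0.14, SE; adjusted p = 0.0185). Its change with deletion was -1.04 and -0.75 in the sets of clone 1 and -0.21 and 0.07 in those of clone 2, on average -0.48 (adjusted p = 0.230), and Tgm1 was at 0.21 (adjusted p = 0.206).

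Genes with the pattern most like F13a1 over the 8 arrays were Ksr1 (Pearson r = 0.986), Arid5a (0.983), Cep164 (0.969), Tnfsf14 (0.966) and Ptpn12 (0.946). Their own changes were small, at most 0.44 on average, for Tnfsf14. By the size of the 4 set changes the nearest were Pcdh7, Ly96, Extl3, Mamdc2 and Btla, at root mean squared distances from 0.344 to 0.469 on the log2 scale. Of these, Ly96 and Btla resembled F13a1 in standing lower in clone 2 controls, at 8.43 against 8.81 and at 7.59 against 8.71, whereas Pcdh7, Extl3 and Mamdc2 stood higher there. The lowest r was that of Nat8f1 (-0.987), whose level varied by little around background.

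For Prrg4 the closest patterns over the 8 arrays were those of Slc52a3 (r = 0.991), Syk (0.989), Ptgir (0.989), Zc4h2 (0.988) and Parp12 (0.987), all higher in clone 2 controls. The most opposed was Abhd5 (-0.994). In the 4 set changes the nearest were Ifi209, Vamp5, Hdc, Plxnc1 and Myo1e, at distances from 0.156 to 0.264. These correlations describe 8 arrays that share 2 clones, so a gene that differs between the clones is likely to score high, and with Spearman's rho 2 of the 5 genes were the same for each of F13a1 and Prrg4.

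Markers of cells that could bring clotting genes along were read beside these results. Over all genes, 0.953% passed with deletion and 3.97% between the clones in control arrays. At these shares, none passing in a short list says little. With deletion 4 of the 10 progenitor markers were lower in all 4 sets and passed, Kit by a log2 change of -0.36 (limma adjusted p = 0.00404), Prtn3 of -0.15 (0.0267), Ms4a3 of -0.81 (0.0484) and Spi1 of -0.14 (0.0465). Ngp of the neutrophil list (-0.45, adjusted p = 0.0305) and Pdgfrb of the stromal list (-0.62, 0.00469) were lower as well, and Hdc of the mast cell and basophil list was higher (0.63, 0.000547). Each was the only gene of its list to pass. Of the 7 mast cell and basophil markers, 3 were above background in all arrays (Mcpt8, Gata2 and Hdc), Ms4a2 in 4, and Cpa3, Prss34 and Fcer1a in none. Mcpt8 (-0.24) and Gata2 (-0.09) of that list were lower in all 4 sets without passing. Of the 8 stromal markers, 4 were above background in all arrays (Col1a1, Col1a2, Col3a1 and Pdgfrb) and 4 in none (Dcn, Lum, Pdgfra and Cxcl12). Of 13 monocyte and macrophage markers 11 were above background in all arrays and 2, Mrc1 and Ms4a7, in none. None of the 13 passed with deletion, and between clones in control arrays 2 were higher in clone 2 (Csf1r and Fcgr1) and 2 lower (Lyz2 and Adgre1). The mean level of that list lay between 7.0 and 7.03 in clone 1 controls, 7.03 and 7.10 in clone 1 deleted cultures, 7.10 and 7.12 in clone 2 controls and 7.08 and 7.18 in clone 2 deleted cultures. Of 8 megakaryocyte and platelet markers 5 were above background in all arrays (Itga2b, Itgb3, Gp5, Gp9 and Treml1) and 3, Pf4, Ppbp and Clec1b, in none. None of the 8 passed with deletion, and 1, Gp9, was higher in clone 2 controls. The list's mean lay between 5.64 and 5.74 in clone 1 and between 5.79 and 6.0 in clone 2. Of 6 hepatocyte markers 5, Alb among them, were below background in all arrays. Of 8 endothelial markers 4 were above background in all arrays (Pecam1, Tie1, Vwf and Egfl7), Cdh5 in 6, and Kdr, Tek and Emcn in none. None of the 8 passed with deletion, and Pecam1 was lower and Tie1 higher in clone 2 controls.

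In clone 2 the 2 replicates differed in the neutrophil list, whose mean was 7.97 and 8.03 in the control and deleted arrays of replicate 1 and 6.91 and 6.78 in those of replicate 2. In clone 1 it was between 6.96 and 7.20. In clone 2, F13a1 and Thbd were lower in replicate 1 than in replicate 2 within each treatment, and F7 and F10 were higher. The part of any of these markers in the clotting gene values was not tested.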

How the data were processed

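Gene expression was measured in 8 cultures on 1-colour Affymetrix arrays. The deposited log2 values were made by the authors with RMA, per the submitters' processing notes; the log base was read from the values. Of 35556 probe sets, 21789 carried 1 symbol, and the brightest per gene gave 19938 genes. Depth has no counterpart on arrays, where the number of arrays limits precision.

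limma 3.58.1 (R 4.3.3; lmFit, eBayes with trend, two-sided, Benjamini-Hochberg over all genes, threshold 0.05) compared deleted with control cultures with the set as a block. It compared the clones within each treatment in a fit of 4 cells with no block, and the clones' changes by an interaction with the set as a block. The fits were tested on simulated data. The design text pairs cultures by set; deviations from group means correlated at 0.724 to 0.817 within sets, which includes the clone difference, and at 0.436 (clone 1) and 0.249 (clone 2) once clone means were removed. The labels do not tie replicate numbers to the study's experiments.

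The 10 genes and all lists were chosen with earlier results of these data known. Named beyond them were pathway genes that passed, up to 3 per role by level, up to 6 per comparison by smallest p, and the 5 nearest patterns to F13a1 and Prrg4. Protein sequences were not used here. The alternatives were other variance models, weights, scalings, probe set rules and filters, and leaving out arrays or sets.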

Additional observations from a re-analysis of the deposited data

Results flagged for a closer look

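The change of F13a1 with deletion was past the threshold for a difference between the clones in limma's interaction fit. The set changes it compares informed the choice of the gene, so it is given as a description and not as independent evidence. It was larger in clone 2 than in clone 1 by 1.07 on the log2 scale, with set values of 1.83 and 1.48 against 0.61 and 0.57. Control levels were lower in clone 2, at 8.46 against 10.04, and levels in deleted cultures were 10.12 and 10.63. The part of the control level or of the neutrophil markers, whose list mean was highest in both clone 2 arrays of replicate 1, was not tested.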

How the results depend on the processing

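The genes passing with deletion numbered 190 with the pairing and 0 with no replicate block, 23 with clone as the only covariate, 13 without the variance trend, 388 with array weights, 0 with all probe sets tested, and 620 and 443 in the sets of replicate number 1 and of number 2 alone. Without 1 set they numbered 98 (without clone 1 replicate 2) to 418 (without clone 2 replicate 2), and 110 without clone 2 replicate 1. The clone difference gave 792 genes in control arrays (1599 with array weights, 477 with all probe sets, 352 to 976 without 1 array, with 352, 409, 461 and 394 without each control array in turn) and 1047 in deleted arrays (567, 599 and 506 to 2673, with 506 without clone 1 replicate 1, 2673 without clone 2 replicate 1 and 592 without clone 2 replicate 2). Over all 8 arrays it gave 2483.

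The interaction gave 2 genes, 0 with no replicate block, 0 without the variance trend, 0 with all probe sets, 4 with array weights, 12 with arrays centred on their medians, 1 among genes above the median level and 5 to 224 without 1 set (5, 13, 224 and 40 in order of clone and replicate). For F13a1 the interaction was 1.07 and not past the threshold with no replicate block, without the trend and with all probe sets, and 0.90 to 1.24 without 1 set. No value of the 10 genes that had been called reversed its sign under any alternative run. Of the 10 genes, 9 were above background in all arrays with a lower percentile of the olfactory receptor genes and 7 with a higher one, against 8. The list of genes most like F13a1, and that for Prrg4, shared 2 of 5 genes with the list by Spearman's rho. The cause of each change in count was not tested.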
